A study of Rattus norvegicus with 8 samples.

Results

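The genes of the rat major histocompatibility complex (MHC), whose names begin with RT1-, and the genes that make, load and regulate MHC molecules were followed in outflow veins of arteriovenous fistulas (AVFs). The set held every RT1- gene in the count tables together with B2m, Tap1, Tap2, Tapbp, Psmb8, Psmb9, Psmb10, Psme1, Psme2, Erap1, Nlrc5, Cd74 and Ciita. It came to 44 of the 32623 listed genes, of which 21 were class I RT1 genes, 10 were class II RT1 genes and 13 were the other members. A BAPN or vehicle scaffold was wrapped around the outflow vein of a femoral artery to epigastric vein AVF in Sprague Dawley rats, an outbred stock, and the veins were harvested at day 21. The BAPN group had 4 rats (3 females and 1 male, BAPN 4). The vehicle group had 4 rats (2 females and 2 males, Vehicle 3 and Vehicle 4), and its scaffold carried no drug. BAPN, β-aminopropionitrile, is an inhibitor of the lysyl oxidases, which crosslink collagen and elastin. All rats had the surgery and a scaffold, no genetic change is named for either group, and no age was given in the sources used here. Because the stock is outbred, rats may carry different RT1 haplotypes, and none was typed here.

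MHC class I molecules pair a heavy chain with β2-microglobulin and show peptides from inside the cell to CD8 T cells and natural killer cells. The peptides are cut by the proteasome, pumped into the endoplasmic reticulum by the Tap1 and Tap2 transporter, and loaded there. Class II molecules are alpha and beta chain pairs that show peptides from taken-up proteins to CD4 T cells, and they are made mainly by macrophages, dendritic cells and B cells, while interferon gamma induces both pathways in many cell types, vascular cells included.

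The sequences before the start sites of the 4 called members with the lowest FDR are shown because these genes, parts of one protein-cutting machine, all rose with BAPN. The 250 bases before each start were taken from RefSeq (assembly GRCr8), where a promoter was listed for 37 of the 44 members, and each is written 5′ to 3′ on the strand of its gene. Psmb9 is at chr20:4668750-4668999 on the + strand, Psme2 at chr15:33052752-33053001 on the - strand, Psme1 at chr15:33038721-33038970 on the + strand and Psmb10 at chr19:50743293-50743542 on the - strand. Capitals mark matches to GAAANNGAA, the core of the interferon-stimulated response element, searched on both strands.
Psmb9: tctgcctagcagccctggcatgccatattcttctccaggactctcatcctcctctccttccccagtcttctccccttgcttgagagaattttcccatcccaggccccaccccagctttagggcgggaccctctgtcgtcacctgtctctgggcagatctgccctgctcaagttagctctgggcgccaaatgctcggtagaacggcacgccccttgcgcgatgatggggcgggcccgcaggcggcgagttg
Psme2: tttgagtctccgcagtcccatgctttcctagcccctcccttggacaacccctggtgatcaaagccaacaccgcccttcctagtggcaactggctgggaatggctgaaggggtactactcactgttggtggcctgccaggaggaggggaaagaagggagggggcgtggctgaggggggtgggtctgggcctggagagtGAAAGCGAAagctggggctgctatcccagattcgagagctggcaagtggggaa
Psme1: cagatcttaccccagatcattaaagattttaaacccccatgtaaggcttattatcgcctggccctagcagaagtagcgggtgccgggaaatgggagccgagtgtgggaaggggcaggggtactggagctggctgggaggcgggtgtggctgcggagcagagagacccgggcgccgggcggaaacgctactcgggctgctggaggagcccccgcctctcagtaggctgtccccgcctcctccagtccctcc
Psmb10: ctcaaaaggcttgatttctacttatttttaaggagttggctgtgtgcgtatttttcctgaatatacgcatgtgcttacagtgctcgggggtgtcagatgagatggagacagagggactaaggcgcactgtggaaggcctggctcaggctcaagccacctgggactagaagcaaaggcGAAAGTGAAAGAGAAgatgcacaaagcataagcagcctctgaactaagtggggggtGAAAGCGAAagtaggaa
Psmb10 held 3 matches, of which the first and second overlap, Psme2 held 1, and Psmb9 and Psme1 held none. The letters GAAANNGAA stood in 8.12% of the 33469 RefSeq promoters of this length, in 3 of 18 class I members, in 0 of 9 class II members and in 6 of 10 of the other members. Besides Psme2 and Psmb10 these 6 were B2m, Tap1, Tap2 and Tapbp. AACNGATG, the core of the X box bound by the class II enhanceosome, stood in 2.17% of all promoters, in 0 of 18 class I members and in 4 of 9 class II members (RT1-Da, RT1-Db1, RT1-Db2 and RT1-DOb). CCAAT, a box that this complex also uses, stood in 34.0% of all promoters, in 13 of 18 class I members, in 9 of 9 class II members and in 3 of 10 of the others. TTCNNNGAA, the gamma activated site, stood in 7.67% of all promoters and in 2 of the 37 members, RT1-M3-1 and Psmb8. All 4 letter strings were searched on both strands, and a match describes the letters in this window and no more.

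Each library's deposited gene counts summed to between 45039451 and 52241007 in the BAPN group and between 19548203 and 22442050 in the vehicle group. Even the shallowest BAPN library was 2.01 times as deep as the deepest vehicle library, and whatever else came with that depth cannot be told apart from the treatment. Expression is given as TMM CPM, counts scaled by library total and by edgeR's TMM factor, in the order of rats 1 to 4 or as mean ± SD. Differences are log2 fold changes of BAPN against vehicle with a standard error (SE) from limma-voom. The FDR is from edgeR's quasi-likelihood test, adjusted by Benjamini-Hochberg over the 11682 genes whose base mean reached 100. CPM is not corrected for gene length, so it is compared between rats and not between genes. In bulk tissue, fewer cells of a type and less RNA per cell cannot be told apart.

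The inducible proteasome, which cuts antigen into peptides, and its activator are encoded by 5 genes here. Of these, 4 were called higher in BAPN-treated veins, and the median log2 fold change over the 5 was 0.56. The constitutive subunits Psmb5, Psmb6 and Psmb7 were called higher too (0.45 to 0.62). Count ratios of the inducible catalytic subunits to these overlapped between the groups. No class II chain passed edgeR's test, though their median was 0.57 and DESeq2 called 2. The difference between the inducible proteasome genes and the class II chains was not tested. Of the 44 members, 31 were expressed highly enough to be tested (13 class I, 6 class II and 12 others). Of these, 7 were called at an FDR below 0.05, all higher with BAPN: Psmb9, Psmb10, Psme1, Psme2, RT1-M3-1, RT1-T24-3 and RT1-N3. Among all 11682 tested genes, 7.50% were called higher and 9.25% lower, and no member was called lower. Every BAPN rat lay above every vehicle rat for 9 of the 31 members, against 12.7% of all tested genes. These were the 7 called genes, B2m and Psmb8. The log2 fold change was above 0 for 27 of the 31 members and below 0 for RT1-A2, RT1-DOa, Tapbp and Erap1, although RT1-CE10 turned below 0 with DESeq2 size factors or total counts as the scaling and RT1-A2 turned above 0 without a filter on low counts. In some fits with a rat left out or with females alone, RT1-DOa, Erap1, RT1-DOb and RT1-T24-4 changed sign too. The median over the 31 was 0.52, against 0.02 over all tested genes. It was 0.42 for class I, 0.57 for class II and 0.52 for the others. DESeq2 called 12 members, all higher, against 12.3% of all tested genes. It added B2m, Psmb8, RT1-Ba, RT1-Da and RT1-N2. None of the 7 edgeR calls held with sex as a covariate, with scaling by total counts, among females alone or without BAPN 3, Vehicle 1 or Vehicle 4.

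**Figure D1:**
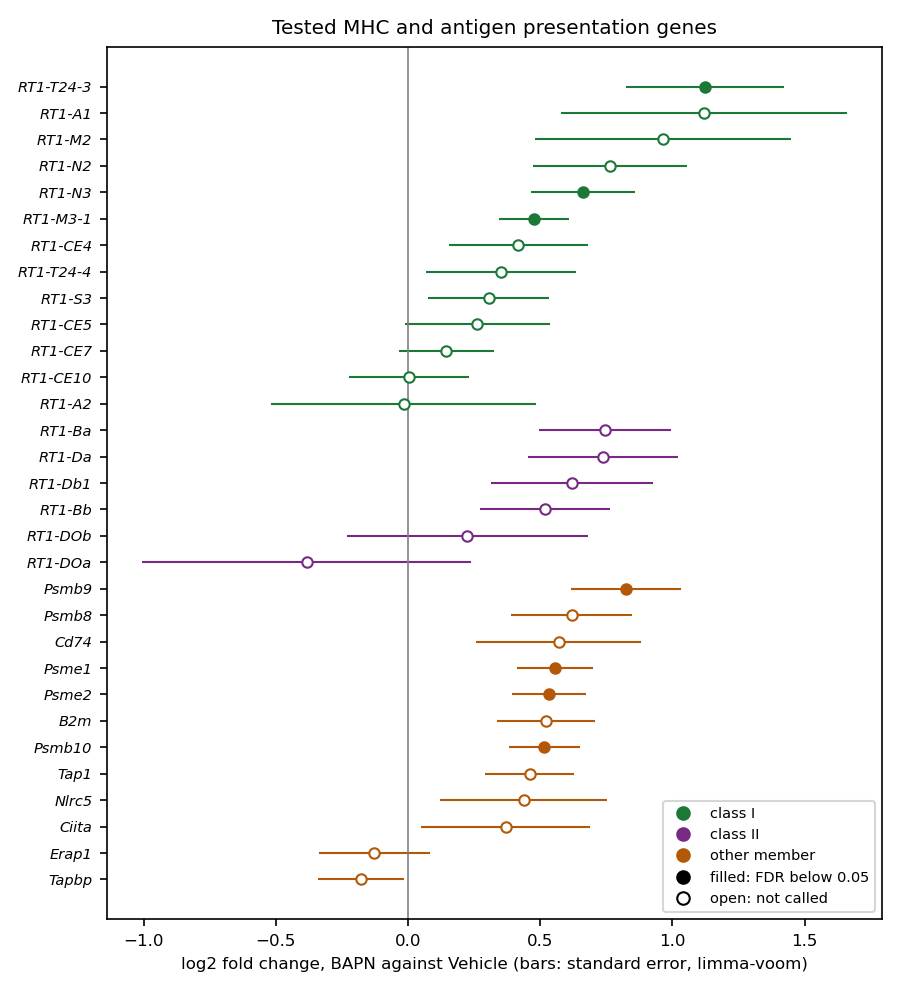
Log2 fold change (x axis, BAPN against vehicle) of each of the 31 tested members, with bars for the standard error from limma-voom, colored by class, filled where the FDR was below 0.05. The 7 filled points all lie right of 0, and the class II chains reach as far right as several of them with no filled point.

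The immunoproteasome and its activator held 4 of the 7 calls. Psmb8, Psmb9 and Psmb10 encode the catalytic subunits that interferon puts in place of the constitutive ones, and Psme1 and Psme2 encode the alpha and beta subunits of the activator ring that caps the proteasome. All 5 were higher with BAPN, 4 were called, and none of the 5 overlapped between the groups. Psmb9 was at 95.2, 80.2, 87.0 and 68.4 CPM with BAPN and at 38.3, 62.7, 53.7 and 32.2 CPM with vehicle. The lowest BAPN rat was the male, BAPN 4, and it still lay above the highest vehicle rat, Vehicle 2. The log2 fold change of Psmb9 was 0.82 (SE 0.21, FDR 0.0299). Psmb10 was at 73.7, 59.1, 70.9 and 60.3 CPM with BAPN and at 39.1, 55.1, 47.8 and 42.7 CPM with vehicle. BAPN 2 and BAPN 4 stood only a little above Vehicle 2. The log2 fold change of Psmb10 was 0.52 (SE 0.13, FDR 0.0325). Psmb8 averaged 94.8 ± 4.73 CPM in BAPN-treated veins and 61.7 ± 21.0 CPM in vehicle veins (SD, n = 4 each). The vehicle rats were spread widely, from 36.0 CPM in Vehicle 4 to 87.2 CPM in Vehicle 2, while BAPN rats were all at 90.6 to 101 CPM. Psmb8 was not called (log2 fold change 0.62, SE 0.23, FDR 0.0796).

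Both activator subunits were called. Psme1 was at 203, 187, 227 and 173 CPM with BAPN and at 116, 163, 138 and 121 CPM with vehicle. Psme2 was at 124, 120.4, 134 and 107 CPM with BAPN and at 73.0, 103, 86.6 and 73.3 CPM with vehicle. In both, BAPN 3 was highest, BAPN 4 was the lowest of the BAPN rats, and Vehicle 2 was the vehicle rat closest to the BAPN range. The log2 fold change was 0.56 for Psme1 (SE 0.14, FDR 0.0318) and 0.53 for Psme2 (SE 0.14, FDR 0.0316). Psme1 and Psme2 lie close together on chromosome 15 in the RefSeq assembly.

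**Figure D2:**
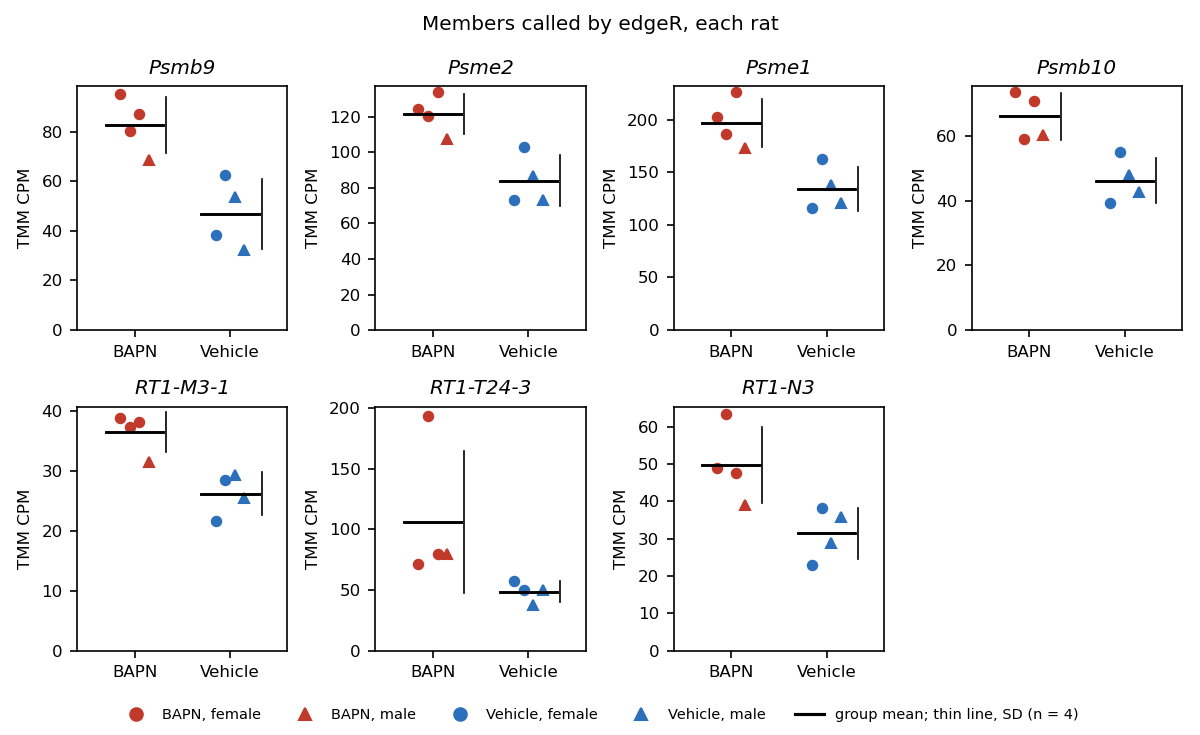
TMM CPM (y axis, from 0) of the 7 called members in each rat, circles for females and triangles for males, thick line for the group mean and thin line for the SD (n = 4). In each panel the 4 BAPN rats lie above the 4 vehicle rats, and in RT1-T24-3 a single rat, BAPN 2, stands far above the other BAPN rats.

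The constitutive partners were also higher. Of 6 listed constitutive proteasome and assembly genes 5 were tested, and 3 were called, all higher: Psmb6 (log2 fold change 0.62, SE 0.11, FDR 0.0118), Psmb7 (0.48, SE 0.10, FDR 0.0170) and Psmb5 (0.45, SE 0.12, FDR 0.0323). These are the subunits that Psmb9, Psmb10 and Psmb8 replace. Count ratios of inducible to constitutive partners were therefore compared within each rat, a choice made after the values were seen. Psmb9 to Psmb6 was 0.903 to 1.41 with BAPN and 0.711 to 1.32 with vehicle, Psmb10 to Psmb7 was 0.867 to 1.20 and 0.823 to 1.14, and Psmb8 to Psmb5 was 2.80 to 3.60 and 1.81 to 4.21. The groups overlapped in each of these ratios (exact two-sided permutation test, p = 0.371, 0.83 and 0.429), and BAPN minus vehicle was 0.24, 0.03 and 0.24 on the log2 scale. The ratio of Psme1 to Psme3, which encodes a nuclear activator that interferon does not induce, was 4.30 to 5.10 with BAPN and 2.66 to 4.13 with vehicle. Here the groups did not overlap, and the difference was 0.49 on the log2 scale (exact permutation test, p = 0.0286, the smallest that 4 rats against 4 allow, and 0.171 after Benjamini-Hochberg adjustment over the 6 ratios compared).

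**Figure D3:**
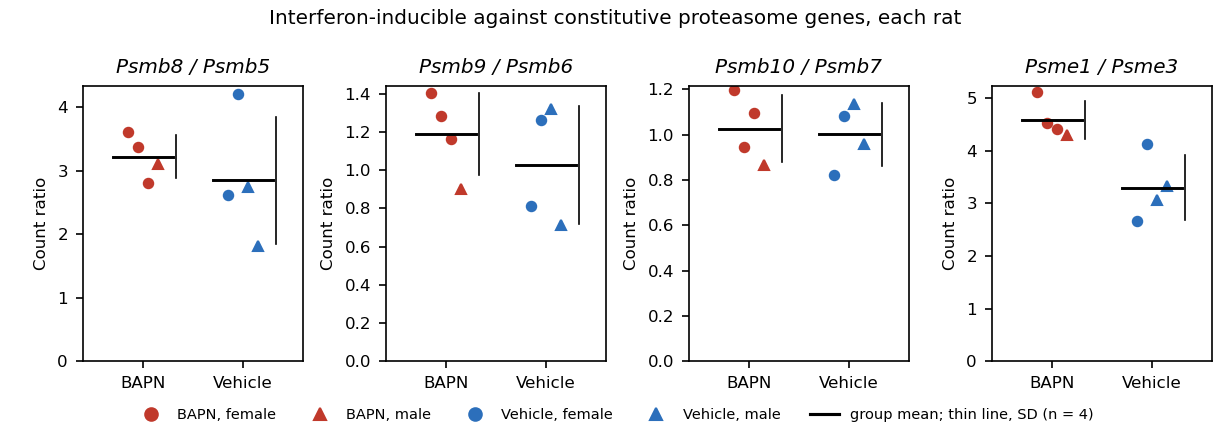
Ratio of counts (y axis, from 0) of an inducible proteasome or activator gene to its constitutive counterpart in each rat, circles for females and triangles for males, thick line for the group mean and thin line for the SD (n = 4). The groups overlap for the 3 catalytic pairs and do not overlap for Psme1 to Psme3.

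B2m and the loading genes gave a mixed picture. B2m encodes the light chain that all classical class I molecules share. It was at 4775, 4619.7, 4897 and 4190.4 CPM with BAPN and at 2879, 4078, 3062 and 2859 CPM with vehicle. The groups did not overlap, but Vehicle 2 came close to BAPN 4, and B2m was not called by edgeR (log2 fold change 0.52, SE 0.19, FDR 0.0786). DESeq2 gave an FDR of 0.00445. Tap1 was at 123, 135, 113 and 93.2 CPM with BAPN and at 75.2, 101, 66.8 and 94.6 CPM with vehicle. BAPN 4 lay below Vehicle 2 and Vehicle 4, and Tap1 was not called (log2 fold change 0.46, SE 0.17, FDR 0.0794). Tapbp, the tapasin gene that bridges class I molecules to the transporter, had a log2 fold change of -0.18 (SE 0.16, FDR 0.445), which ranged from -0.26 without BAPN 2 to -0.09 without Vehicle 2. Erap1, an aminopeptidase that trims peptides, had one of -0.13 (SE 0.21, FDR 0.679). Tap2 was barely counted, with 5 to 18 reads in the deeper BAPN libraries and 2 to 8 in the vehicle libraries, and was not tested. Scaled for depth, Tap2 averaged 0.254 CPM with BAPN and 0.225 CPM with vehicle. In the RefSeq assembly, RT1-DOb, Tap2, Psmb8, Tap1, Psmb9, RT1-DMb and RT1-DMa follow one another in that order on chromosome 20. Of these neighbours Tap2, RT1-DMb and RT1-DMa had very few counts, and how reads were assigned there is not given in the sources used here.

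Class I heavy chains spread widely between rats. Of 13 tested class I genes, 12 had a log2 fold change above 0 and 3 were called. RT1-M3-1, a nonclassical molecule that presents formylated peptides, was at 38.8, 37.3, 38.3 and 31.6 CPM with BAPN and at 21.6, 28.5, 29.4 and 25.4 CPM with vehicle. The 3 BAPN females were almost equal, and the BAPN male was only just above Vehicle 3. Its log2 fold change was 0.48 (SE 0.13, FDR 0.0382). RT1-N3, another nonclassical gene, was at 49.0, 63.4, 47.6 and 39.1 CPM with BAPN and at 23.1, 38.2, 28.7 and 35.9 CPM with vehicle. BAPN 4 and Vehicle 2 nearly met. Its log2 fold change was 0.66 (SE 0.20, FDR 0.0457). RT1-T24-3, also nonclassical, was at 71.5, 193, 79.8 and 79.5 CPM with BAPN and at 57.7, 50.1, 37.4 and 49.7 CPM with vehicle. BAPN 2 was far above the rest, and the other BAPN rats still lay above all vehicle rats. Its log2 fold change was 1.12 (SE 0.30, FDR 0.0416), and without BAPN 2 it was 0.65.

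The class I genes with the largest mean CPM were not called. RT1-A1, a classical heavy chain gene, was at 1259, 267, 364 and 905 CPM with BAPN and at 140.1, 262, 350.0 and 535 CPM with vehicle. BAPN 1 and BAPN 4 were high, BAPN 2 and BAPN 3 lay within the vehicle range, and the log2 fold change of 1.12 had an SE of 0.54 (FDR 0.165). It was 0.67 without BAPN 1. RT1-A2, the other classical gene, was at 361, 282, 146 and 254.96 CPM with BAPN and at 233, 479, 258 and 86.2 CPM with vehicle. Its highest and its lowest rat were both vehicle rats, and the log2 fold change was -0.02 (SE 0.50, FDR 0.982). RT1-S3 was at 203, 324, 151 and 169.6 CPM with BAPN and at 170.3, 195, 131 and 189.8 CPM with vehicle. RT1-CE4 was at 180.0, 173, 198 and 118 CPM with BAPN and at 108, 176, 138 and 78.7 CPM with vehicle. RT1-CE10 was at 163, 140.0, 115 and 101 CPM with BAPN and at 104, 177, 143 and 93.6 CPM with vehicle. The groups overlapped in all 3, with log2 fold changes of 0.31 (SE 0.23, FDR 0.383), 0.42 (SE 0.26, FDR 0.253) and 0.00 (SE 0.23, FDR 0.992). RT1-S3 came to 0.02 without BAPN 2, and RT1-CE4 ranged from 0.25 without Vehicle 4 to 0.63 without Vehicle 2. The other tested class I genes, RT1-N2, RT1-M2, RT1-T24-4, RT1-CE5 and RT1-CE7, had log2 fold changes between 0.15 and 0.97 with FDRs between 0.0635 and 0.579, and of these RT1-N2 (0.76, SE 0.29, FDR 0.0635) came nearest to a call. With one rat left out RT1-M2 (0.97) came to 0.58 without BAPN 3, RT1-CE5 (0.26) ranged from 0.14 without Vehicle 1 to 0.45 without BAPN 4, and RT1-CE7 (0.15) ranged from 0.04 without BAPN 1 to 0.27 without BAPN 4. RT1-T24-4 (0.35) turned to -0.0757 without BAPN 2.

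Summed over the 21 class I genes, expression came to 1979 ± 489 CPM in the BAPN group and 1382 ± 245 CPM in the vehicle group (SD, n = 4 each), a ratio of 1.43. The groups overlapped, with BAPN 3 at 1457 CPM and Vehicle 2 at 1695 CPM. The makeup of that sum differed from rat to rat in both groups. RT1-A1 took 47.7, 14.1, 25.0 and 47.0% of the class I counts of the BAPN rats and 12.8, 15.4, 25.6 and 39.0% of those of the vehicle rats. RT1-A2 took 13.7, 14.9, 10.0 and 13.2% with BAPN and 21.3, 28.3, 18.9 and 6.29% with vehicle. The ratio of RT1-A1 to RT1-A2 counts ran from 0.945 to 3.55 with BAPN and from 0.546 to 6.20 with vehicle (exact two-sided permutation test, p = 0.429), with both extremes in vehicle rats. Class I genes are a family of related sequences. Among the 18 class I genes with a RefSeq promoter, the 250 bases before the start were 96.0% identical between RT1-M6-1 and RT1-M6-2, 82.5% between RT1-CE10 and RT1-CE4 and 82.2% between RT1-A2 and RT1-CE5, while the median over the 153 pairs was 50.5% and RT1-A1 and RT1-A2 were 61.7% identical. These bases lie before the transcript, and the transcripts themselves were not compared. How shared reads were counted is not given in the sources used here, so the split between single class I genes is uncertain.

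**Figure D4:**
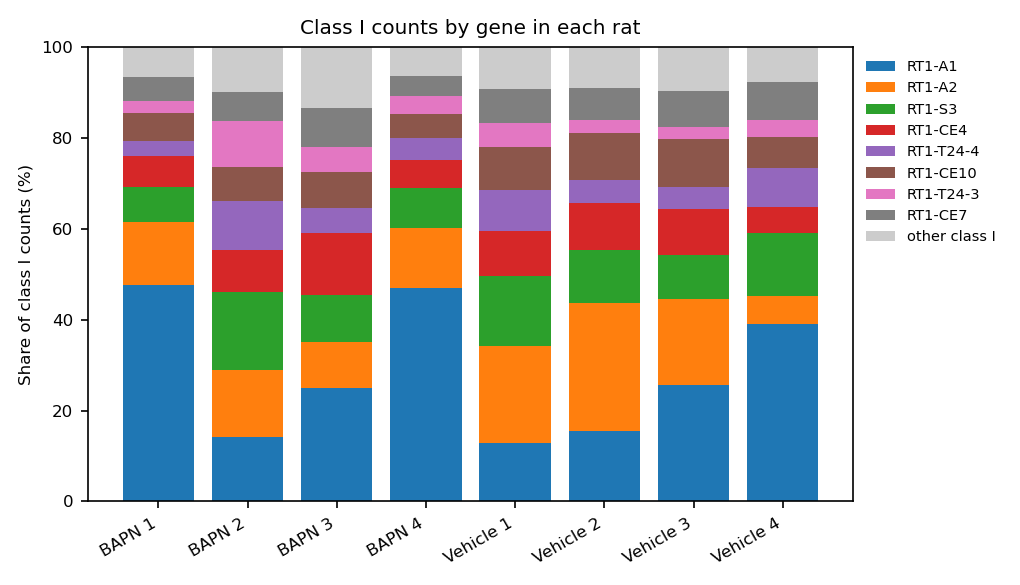
Share of all class I counts (y axis, percent) taken by each class I gene in each rat, as stacked bars for the 8 genes with the most counts and all other class I genes together. RT1-A1 ranges from 12.8% in Vehicle 1 to 47.7% in BAPN 1, and large and small RT1-A1 shares occur in both groups.

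Of the class I genes below the filter, RT1-T24-1 and RT1-CE3 had 25 to 189 reads in every library. RT1-CE1 and RT1-S2 differed sharply between rats. RT1-CE1 had 37, 18, 19 and 19 reads with BAPN and 84, 141, 110 and 12 with vehicle, although the BAPN libraries were deeper. Vehicle 4 thus fell with the BAPN rats. With the filterByExpr filter RT1-CE1 entered the test and was called lower (log2 fold change -3.02, FDR 0.0236), and with no filter as well (-3.00, FDR 0.0224). RT1-S2 had 2, 8, 9 and 68 reads with BAPN and 55, 98, 29 and 3 with vehicle, and again Vehicle 4 was low, while BAPN 4 was high. RT1-S2 was not called with either filter (FDR 0.202 and 0.228). RT1-M6-1 had 0 to 17 reads, RT1-M4 had 2 reads in BAPN 4 alone, and RT1-M5 had none in any library, which allows up to 0.0589 to 0.148 CPM per library (3 counts, counting error only). RT1-M6-2 had 6, 11, 6 and 1 reads with BAPN and 0 in each vehicle library. Every BAPN library thus lay above every vehicle library, though a count of 0 allows up to 0.126 to 0.148 CPM in the vehicle libraries and BAPN 4 was at 0.0209 CPM. With no filter RT1-M6-2 entered the test and was not called (FDR 0.120).

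The chains of the DR-like and DQ-like molecules had log2 fold changes of 0.52 to 0.74 without passing the test. Of 6 tested class II genes, 5 had a log2 fold change above 0 and 0 were called by edgeR. At an unadjusted p below 0.05 there were 2, RT1-Ba and RT1-Da, and DESeq2 called the same 2 genes. Of all 11682 tested genes, 4184 were at an unadjusted p below 0.05 and DESeq2 called 3202, so 2 of 6 is near the share of all genes. RT1-Da, the alpha chain of the DR-like molecule, was at 2080.4, 1385, 2027 and 1354 CPM with BAPN and at 977, 1425, 1080.2 and 622 CPM with vehicle. BAPN 1 and BAPN 3 were above all vehicle rats, and BAPN 2 and BAPN 4 were below Vehicle 2. Its log2 fold change was 0.74 (SE 0.28, FDR 0.0846). Its partner RT1-Db1 was at 1681, 898, 1555 and 1044 CPM with BAPN and at 804, 1129, 945 and 488 CPM with vehicle. The same 2 BAPN rats were high, and the log2 fold change was 0.62 (SE 0.31, FDR 0.161). RT1-Ba, the alpha chain of the DQ-like molecule, was at 1256, 465, 714 and 799 CPM with BAPN and at 439, 555, 444 and 492 CPM with vehicle. All BAPN rats but BAPN 2 lay above the vehicle rats, and the log2 fold change was 0.74 (SE 0.25, FDR 0.0827). Without BAPN 2 RT1-Ba was called (0.93, FDR 0.0396), while leaving out BAPN 1 gave 0.45 (FDR 0.176). Its partner RT1-Bb was at 1116, 485, 769.8 and 709 CPM with BAPN and at 532, 682, 419.9 and 517 CPM with vehicle. BAPN 2 again fell within the vehicle range, and the log2 fold change was 0.52 (SE 0.25, FDR 0.177), or 0.28 without BAPN 1.

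Cd74, Ciita, RT1-DOa and RT1-DOb, which serve the class II chains, did not pass the test. Cd74 encodes the invariant chain, which fills the class II groove until the peptide is loaded. It was at 6519, 4853, 7294 and 4696 CPM with BAPN and at 3786, 5465, 4303 and 2189 CPM with vehicle. BAPN 1 and BAPN 3 lay above all vehicle rats, BAPN 2 and BAPN 4 below Vehicle 2, and Cd74 was not called (log2 fold change 0.57, SE 0.31, FDR 0.194; 0.37 without Vehicle 4). The ratio of Cd74 to RT1-Da counts was 3.13 to 3.60 with BAPN and 3.52 to 3.98 with vehicle, a difference of -0.15 on the log2 scale (exact two-sided permutation test, p = 0.0571, adjusted 0.171). Ciita, the transactivator of class II genes, had a log2 fold change of 0.37 (SE 0.32, FDR 0.426), and Nlrc5, its class I counterpart, one of 0.44 (SE 0.32, FDR 0.302). Ciita came to 0.11 without BAPN 1 and Nlrc5 to 0.27 without BAPN 2. RT1-DOb, a chain of the DO molecule that restrains peptide loading, was at 33.3, 27.4, 60.7 and 24.8 CPM with BAPN and at 33.1, 44.0, 38.5 and 9.46 CPM with vehicle. BAPN 3 lay above every vehicle rat and Vehicle 4 below every BAPN rat, with the others overlapping, and the log2 fold change was 0.22 (SE 0.46, FDR 0.735). The log2 fold change of RT1-DOb turned to -0.13 without BAPN 3 and to -0.08 without Vehicle 4. RT1-DOa, its partner, had a log2 fold change of -0.38 (SE 0.62, FDR 0.662), which ranged from -1.01 without BAPN 3 to -0.04 without Vehicle 4. RT1-DMa and RT1-DMb, which encode the peptide editor of class II, had 14 to 41 reads in the deeper BAPN libraries and 4 to 12 in the vehicle libraries. Scaled for depth, RT1-DMa averaged 0.367 CPM with BAPN and 0.368 CPM with vehicle, and RT1-DMb 0.739 and 0.336 CPM. RT1-Db2 and RT1-Ha also stayed below the filter, with at most 93 and 17 reads. Summed over the 10 class II genes, expression came to 4627 ± 1289 CPM in the BAPN group and 2925 ± 701 CPM in the vehicle group (SD, n = 4 each), a ratio of 1.58, and the groups overlapped.

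**Figure D5:**
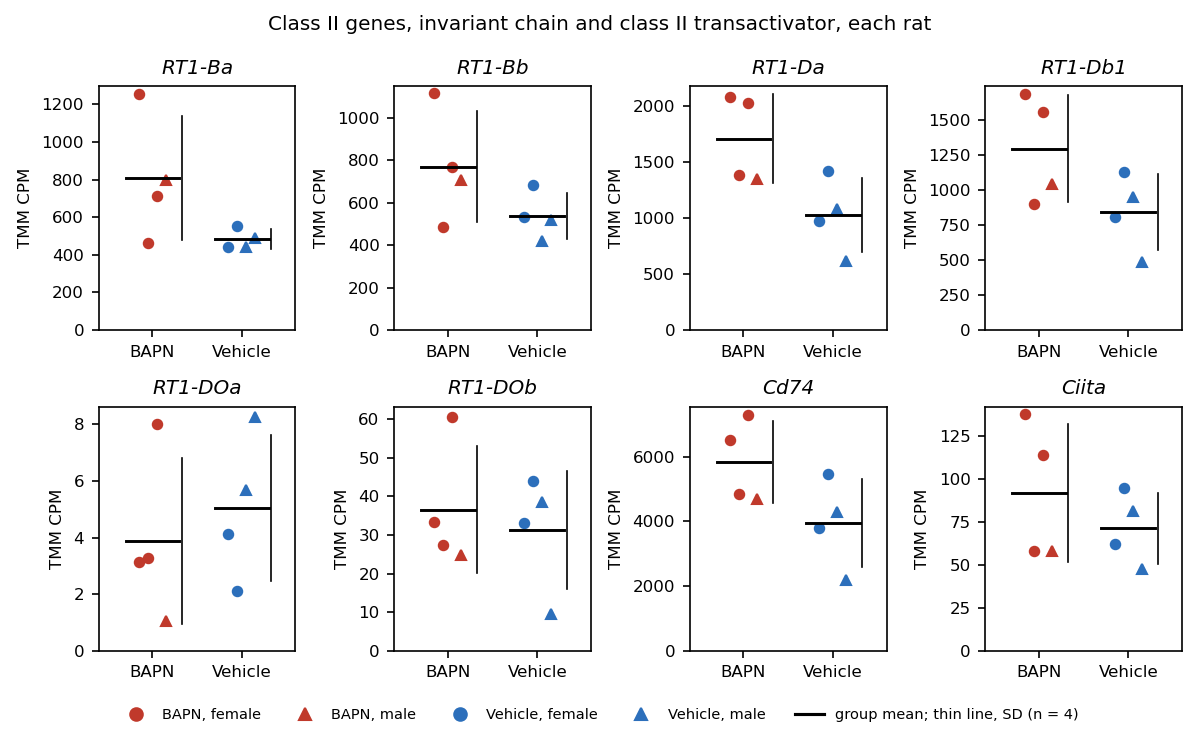
TMM CPM (y axis, from 0) of the 6 tested class II genes, of Cd74 and of Ciita in each rat, circles for females and triangles for males, thick line for the group mean and thin line for the SD (n = 4). The groups overlap in every panel, with BAPN 1 or BAPN 3 on top in every panel but that of RT1-DOa.

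Genes of the pathway outside the set were taken from a list of 49 genes, of which 43 were tested, 7 were called higher and 1 lower. Besides the 3 constitutive subunits these were Ctss, Ifngr2, Jak2, Irf1 and Icoslg. Over all 11682 tested genes, 7.50% were called higher and 9.25% lower, 16.8% together. At an unadjusted p below 0.05 were 4184 of the 11682, and DESeq2 called 27.4%. The counts of each list stand against these shares. Among 8 genes of class II processing and turnover, all had a log2 fold change above 0, the median was 0.52, 5 were at an unadjusted p below 0.05 and DESeq2 called 3. edgeR called 1, Ctss, the protease that cleaves the invariant chain (1.03, SE 0.19, FDR 0.0122). Among 15 tested genes of interferon gamma signaling and of the factors that bind MHC promoters, 11 had a log2 fold change above 0, the median was 0.26, 6 were at an unadjusted p below 0.05 and DESeq2 called 5. edgeR called 3, all higher. They were Jak2, a kinase of the receptor (0.63, SE 0.10, FDR 0.00946), Irf1, a factor that binds interferon-stimulated response elements (0.57, SE 0.15, FDR 0.0300), and Ifngr2, a chain of the receptor (0.64, SE 0.19, FDR 0.0457). Ifng itself averaged 0.218 ± 0.196 CPM in the BAPN group and 0.146 ± 0.174 CPM in the vehicle group (SD, n = 4 each) and was not tested, and Rfxap had no count. Of 5 tested co-stimulation and checkpoint genes, 4 had a log2 fold change above 0, the median was 0.39, 4 of the 5 were at an unadjusted p below 0.05 and DESeq2 called 2. edgeR called 1, the lower Icoslg, a ligand of ICOS, a co-stimulatory receptor on T cells (-0.53, SE 0.15, FDR 0.0380). None of 5 tested endoplasmic reticulum loading partners and none of 5 tested class I-like genes outside RT1 was called by edgeR. At an unadjusted p below 0.05 both of these lists held 0, and DESeq2 called 1 and 0.

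Markers of the cells that can carry these genes were read beside them. Over all 11682 tested genes, edgeR called 7.50% higher and 9.25% lower, DESeq2 called 27.4%, and 4184 were at an unadjusted p below 0.05. Ptprc, the pan-leukocyte marker, was at 401 to 629 CPM with BAPN and 242 to 485 CPM with vehicle and was not called (log2 fold change 0.45, SE 0.24, FDR 0.189). Of 10 macrophage markers, 9 had a log2 fold change above 0 and 0 were called by edgeR, with 1 at an unadjusted p below 0.05 and 1 called by DESeq2, and their median was 0.31. Their summed level was 29095 to 42140.4 CPM with BAPN and 6635 to 23793 CPM with vehicle, mostly from Lyz2, the lysozyme gene, at 24109 to 38028 and 3861 to 19484 CPM. Without Lyz2, the only one of the 10 whose groups did not overlap, the sums were 3828 to 4986 and 2761 to 4309.5 CPM and overlapped. Of 9 T cell markers 8 had a log2 fold change above 0, the median was 1.02, and DESeq2 called 4. edgeR called 2, both higher, Cd2 (1.38, SE 0.31, FDR 0.0138) and Cd8a (1.33, SE 0.33, FDR 0.0281). The sums were 385 to 470 and 308 to 525 CPM with Cd4, which held most of the counts and had a log2 fold change of -0.07 (FDR 0.811), and 62.3 to 148 and 30.8 to 71.0 CPM without it. Of 8 dendritic cell markers 6 had a log2 fold change above 0 and the median was 0.41. edgeR called 1, the lower Zbtb46 (-0.80, SE 0.15, FDR 0.0161), and DESeq2 called 2, with sums of 459 to 581 and 223 to 519 CPM. Of 8 B cell markers 2 were tested and 1 was called, Cd79b (2.55, SE 1.31, FDR 0.0458), whose groups overlapped, with BAPN 4 at 0.731 CPM and the vehicle rats at 0.346 to 1.94 CPM. It passed the filter through the other BAPN rats, the other tested marker had a log2 fold change of -0.03, and the list had sums of 12.7 to 48.3 and 15.5 to 23.6 CPM. Of 6 natural killer and cytotoxic markers 4 were tested and 0 were called by edgeR (1 was at an unadjusted p below 0.05, and DESeq2 called 1), with sums of 45.5 to 80.8 and 15.8 to 52.9 CPM, and Gzmb was at 0 in every library. The defining markers of the vein wall were present. All 7 listed endothelial markers were below 0 on the log2 scale with 2 called, Tek (-1.24, SE 0.19, FDR 0.00890) and Vwf (-1.99, SE 0.50, FDR 0.0389), at sums of 479 to 635 CPM with BAPN and 776 to 1533 CPM with vehicle. All 6 smooth muscle markers were below 0 with 4 called, among them Lmod1 (-1.30, SE 0.22, FDR 0.0124), Myh11 (-1.60, SE 0.29, FDR 0.0148) and Smtn (-0.95, SE 0.22, FDR 0.0254), at sums of 1435 to 3991 and 2974 to 5622 CPM. Of 5 fibroblast markers 4 were below 0 and 0 were called by edgeR (2 were at an unadjusted p below 0.05, and DESeq2 called 2), with sums of 3185 to 4592 and 3386 to 6302 CPM. The part of these markers in the MHC results was not tested.

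The direction of the 7 called members was kept in every alternative run, while the calls were not. All 7 stayed called with DESeq2, with its size factors in edgeR, with upper quartile scaling and with either other filter, and all but RT1-N3 did with libraries thinned to equal totals (log2 fold changes 0.49 to 1.13 over the 7). None was called with scaling by total counts (FDR 0.0529 to 0.0926), with sex as a covariate (0.0624 to 0.102) or among females alone (0.108 to 0.189). The log2 fold changes of the 7 ran from 0.42 to 1.08, from 0.46 to 1.01 and from 0.52 to 1.09 in these fits, against 0.48 to 1.12 over all rats. Of all tested genes, 14.3, 7.96 and 0.762% were called there, against 16.8% over all rats. No call was left without BAPN 3, without Vehicle 1 or without Vehicle 4, where 6.38, 3.40 and 8.24% of all tested genes were called. The log2 fold changes of the 7 then ran from 0.45 to 1.24, from 0.39 to 1.21 and from 0.46 to 1.13. Without BAPN 1 RT1-T24-3 alone was called. Without BAPN 2 RT1-T24-3 and Psmb10 were, without BAPN 4 Psmb9, Psme1 and Psme2, and without Vehicle 3 RT1-M3-1 and Psmb9. Without Vehicle 2 all but RT1-T24-3 were called, and B2m, Psmb8, Tap1 and RT1-Da were called as well. In a test of whether the difference between BAPN and vehicle itself differed by sex, 0 members had an FDR below 0.05, and that test rested on a single BAPN male.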

How the data were processed

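RNA from outflow veins of 8 rats was sequenced from ribosomal RNA-depleted stranded libraries. The deposited files hold raw whole-number counts per gene made by the authors, without normalization. Per the labels, the submitters' processing notes name bcl2fastq 2.17, Trim Galore and STAR. The counter, strand setting, genome build and annotation are not given in the sources used here, so reads of overlapping or near-identical genes may be shared. Groups, replicate numbers and sexes were taken from the sample labels. No label says more about replicates than that they are separate samples.

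Only genes whose base mean (DESeq2 1.42.0 size factors) reached 100 were tested as in the study's methods, which left 11682 genes. BAPN was compared with vehicle by edgeR 4.0.16 (TMM, quasi-likelihood test, no covariate) in R 4.3.3, with standard errors from limma 3.58.1. FDRs were adjusted by Benjamini-Hochberg across the whole set of tested genes. Exact permutation tests of ratios went through all 70 arrangements. Replicate libraries all differed beyond sampling noise (chi-square over its degrees of freedom 68.6 to 320.8). On simulated counts, edgeR recovered 86% of 200 genes changed by 1.5 on the log2 scale among 11682. Every tested member changed by less, at most 1.12, so this share does not apply to changes of their size. Promoters and gene order are from RefSeq GRCr8 (Biopython 1.88).

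The members, lists and tests were chosen with earlier results of these data known. Each member is named; values in every rat are given for called members and for the 5 with the highest mean CPM in class I, in class II and among the others; of neighbors and markers, called genes are named, at most 3 per list in order of FDR. Ptprc, Ifng, Psme3, Rfxap, Gzmb, Lyz2 and Cd4, the sums without the last pair, the values given of Psmb8 and of genes below the filter, and the count ratios were added after values were seen. No member name stands for more than 1 listed gene. Alternatives were DESeq2, other scalings and filters, sex as a covariate, females alone, a replicate block, libraries thinned to equal totals, and leaving out each rat in turn.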

Additional observations from a re-analysis of the deposited data

Results flagged for a closer look

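In 62 groups of 4 rats (31 tested members in 2 treatments), a single rat stood apart from the other 3 by Dixon's criterion in 2, where chance gives about 1 in 20. Both were BAPN 2 in nonclassical class I genes of the T24 group. For RT1-T24-3 BAPN 2 reached 193 CPM, against 71.5 to 79.8 CPM in its group. For RT1-T24-4 it reached 206 CPM, against 80.9 to 94.0 CPM. Without BAPN 2 the log2 fold change of RT1-T24-3 was 0.65 in place of 1.12 and that of RT1-T24-4 was -0.0757 in place of 0.35. The cause was not tested.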

How the results depend on the processing

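The counts of called class I, class II and other members and of the pathway genes outside the set were 3, 0, 4 and 8. They were 0, 0, 0 and 5 with total counts only, 0, 0, 0 and 4 with sex as a covariate, and 0, 0, 0 and 0 among females only. DESeq2 called 4, 2, 6 and 14. With one rat left out they ranged from 0 to 2, from 0 to 1, from 0 to 7 and from 3 to 11. Upper quartile scaling and DESeq2 size factors in edgeR gave the main counts, and the other filters and equal library totals stayed within 1.5 times of them. With equal totals RT1-N3 was not called (FDR 0.0596). With the replicate block the counts were 0, 0, 0 and 2, and the 7 called members had FDRs of 0.0525 to 0.0891 and log2 fold changes of 0.48 to 1.00. Over all tested genes 4.76% were called with the block, against 16.8% without it. The numbers are not known to pair rats: deviations of same-numbered rats correlated at 0.09, -0.27, 0.27 and -0.14, and 1 of 4 numbers correlated best with its own. Changes of sign were limited to log2 fold changes that were not called. RT1-CE10 (0.00) was -0.00751 with DESeq2 and with its size factors in edgeR, -0.0123 among females only, -0.00896 with equal totals, -0.0534 with total counts only, -0.0894 with sex as a covariate, and -0.124 to 0.191 with one rat left out. RT1-A2 (-0.02) was 0.0127 without a filter, 0.14 with the replicate block and -0.31 to 0.44 with one rat left out. RT1-DOa (-0.38) was 0.62 among females only. With one rat left out, Erap1 ranged from -0.275 to 0.0595, RT1-DOb from -0.13 to 0.43 and RT1-T24-4 from -0.0757 to 0.494. Apart from the smaller number of rats where some were left out, the causes were not tested. Summed class I and class II levels had BAPN to vehicle ratios of 1.38 and 1.52 by total counts only, against 1.43 and 1.58. Vehicle libraries were the shallower ones, which limits members with few reads.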
